A study of Mus musculus with 17 samples.

Results

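Newborn testes that lacked both Pld6 and Dnmt3l (double knockout, DKO, 3 libraries) were compared with newborn testes that lacked Pld6 alone (Pld6 KO, 4 libraries), to ask what the loss of Dnmt3l adds where Pld6 is already lost. The comparison takes 7 of the 17 libraries of the series and covers every gene of the newborn table with a valid quantification, 23978 of 23980. All animals were of the C57BL6/J strain and were taken on postnatal day 0 (P0). Both groups carry the Pld6 knockout, and the DKO carries the Dnmt3l knockout in addition. Wild-type (WT, 2 libraries) and Dnmt3l KO (2 libraries) testes of the same age were used for the matching comparison in which Pld6 is present. The tissue was the whole testis, not sorted cells, and the labels name no treatment. Per the study's methods both mutant lines had been backcrossed to C57BL/6J. The knockouts are not limited to germ cells, so somatic cells carry them as well. The labels call the libraries biological replicates, without saying how many animals went into each.

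Pld6 encodes an enzyme on the outer mitochondrial membrane that is needed to make PIWI-interacting RNAs (piRNAs), small RNAs that direct the cleavage of retrotransposon transcripts and guide DNA methylation to retrotransposon promoters in fetal male germ cells. Dnmt3l encodes a catalytically inactive partner of the de novo DNA methyltransferases, without which retrotransposons and imprinted regions of the male germ line gain much less methylation. At birth the germ cells of the testis are prospermatogonia, mitotically arrested cells enclosed in cords of Sertoli cells, with steroid-producing fetal Leydig cells, peritubular cells, vessels and macrophages around them. In such a bulk sample, fewer cells of a type cannot be told apart from less RNA per cell.

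The Pld6 KO libraries held 10253012 to 12932265 fragments and the DKO libraries 9900346, 13344285 and 23498968. After low counts were filtered out, 15901 genes were tested. Markers of the tissue were present in all 7 libraries, with the Sertoli cell hormone gene Amh at 192 to 403 counts per 1e+06 fragments (CPM) in Pld6 KO and 222 to 736 in DKO, and the germ cell gene Ddx4 at 28.2 to 72.3 and 40.6 to 90.7 CPM. One library stood apart in its level of germ cell markers. The summed level of 26 prospermatogonia markers was 222 CPM in Pld6 KO replicate 1, against 742 to 783 CPM in the other 3 Pld6 KO libraries and 830, 404 and 808 CPM in DKO. The precursor of ribosomal RNA, Rn45s, was left out of all tests. It was listed at 0 in the 4 Pld6 KO libraries with a status saying that the locus held too many fragments to be quantified, and had 438659, 130930 and 74633 fragments in DKO, or 4.43, 0.981 and 0.318% of the library.

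The deleted genes themselves check the labels. Counts of Pld6, a protein-coding gene on chromosome 11 (59783893 to 59787657, GRCm38.p6 throughout), were 2, 0, 1 and 2 with Pld6 alone lost and 0 in each DKO library, against 57 and 40 in WT, so that both groups were at or under 3 counts per library and no fold is given. For Dnmt3l, protein-coding on chromosome 10 (78042287 to 78063622), the Pld6 KO libraries gave 6, 135, 30 and 145 counts and the DKO libraries 1, 0 and 3. The groups did not overlap, but the Pld6 KO libraries differed widely among themselves, and the lowest was replicate 1, the one poor in germ cell markers. Pooled over libraries and scaled to depth, the Pld6 KO count was 79.2 times that of DKO (95% interval 30.6 to 293, counting error alone). The fitted log2 fold change was −6.23 ± 1.13 (SE), which did not pass adjustment (FDR 0.442, edgeR). Without Pld6 KO replicate 1 it was −6.62 and passed (FDR 0.00718, edgeR).

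**Figure D1:**
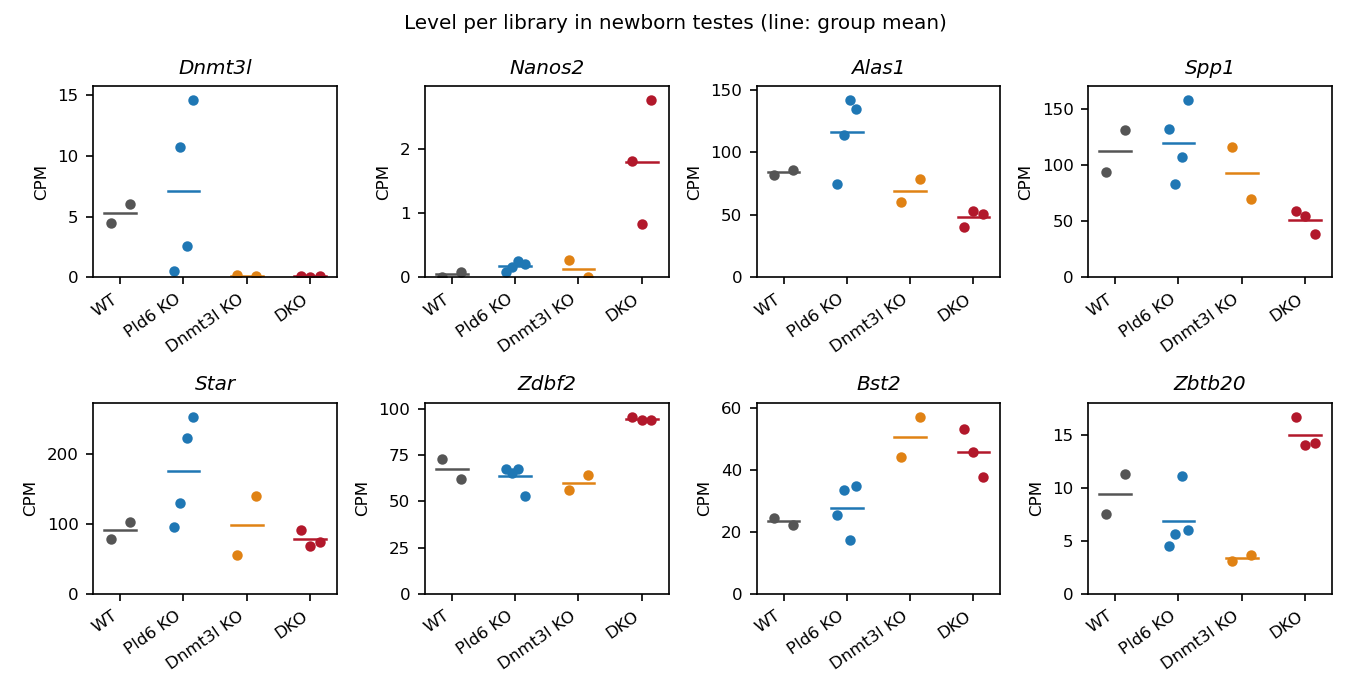
Level in CPM of 8 named genes in each of the 11 newborn libraries, grouped as WT, Pld6 KO, Dnmt3l KO and DKO, with lines at the group means. Dnmt3l is near 0 in the 5 libraries that carry its knockout, Nanos2 is highest in the 3 DKO libraries, and Alas1, Spp1 and Star are lower in every DKO library than in every Pld6 KO library.

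No gene passed the threshold of FDR under 0.05 and a fold change over 2 between DKO and Pld6 KO (edgeR quasi-likelihood test, 0% of 15901 genes). The smallest FDR was 0.429, for Alas1. At an unadjusted p under 0.05 there were 957 genes, 6.02% of those tested, of which 552 (3.47%) were higher and 405 (2.55%) lower in DKO. The DESeq2 Wald test called 6 genes (0.0377%), with Pisd-ps1, Mybpc3 and Pisd-ps2 higher and Dnmt3l, Alas1 and Spp1 lower in DKO. CPM ranges did not overlap between the groups in 1010 genes (6.35%), 526 with DKO higher (3.31%) and 484 with DKO lower (3.04%). Since none of the genes below passed the edgeR test, what follows gives their levels, and "higher" and "lower" describe these libraries.

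Separate ranges, an unadjusted p under 0.05 and an adequate count held for 228 higher and 228 lower genes of the 15901 tested. The 12 with the smallest p of each direction are named. Among the higher genes was Pisd-ps1 (chromosome 11, 3124002 to 3131945), a transcribed pseudogene of the phosphatidylserine decarboxylase gene Pisd. Its level was 38.2, 28.6, 52.1 and 47.5 CPM in Pld6 KO and 143, 153 and 106 CPM in DKO. The log2 fold change was 1.68 ± 0.34 (FDR 0.442, edgeR). A related copy, Pisd-ps2 (chromosome 17, 3064318 to 3084183), was also higher, at 4.38 to 6.25 CPM against 9.14 to 16.7 CPM, a log2 difference of 1.24 ± 0.27. Pseudogene copies share sequence with each other and with Pisd, so how fragments were divided among them is uncertain, and the WT libraries themselves held 99.9 and 27.4 CPM of Pisd-ps1.

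Genes of known function in this group have unlike roles. Mybpc3 (chromosome 2, 91118114 to 91136516), which encodes the cardiac form of myosin-binding protein C, stood at 22.8, 21.2, 21.2 and 23.0 CPM in Pld6 KO and 74.7, 30.6 and 41.2 CPM in DKO, 1.14 ± 0.23 on the log2 scale. The Pld6 KO libraries were tightly grouped and the spread lay in DKO, and the difference was 0.70 without DKO replicate 1. H2-D1, a classical MHC class I heavy chain, was at 20.3, 21.5, 18.8 and 18.2 CPM in Pld6 KO and 27.3, 42.7 and 32.5 CPM in DKO, 0.80 ± 0.19 on the log2 scale (FDR 0.655, edgeR), though its sequence is close to that of other class I genes. Mib1, a ubiquitin ligase that activates Notch ligands, had 34.4 to 45.5 CPM against 54.1 to 74.1 CPM. Zbtb20, a zinc finger repressor of transcription, had 4.46, 5.64, 11.1 and 6.04 CPM against 16.7, 14.0 and 14.2 CPM, and Ppp1r3e, a subunit that directs protein phosphatase 1 to glycogen, 3.34 to 5.70 against 7.2 to 11 CPM. The others were Gstp2 (a glutathione transferase with close paralogs, log2 fold change 1.38), 8430419L09Rik (0.87), the long noncoding RNAs Gm2373 (1.76) and Gm16702 (1.05), and Zdbf2, described with the imprinted genes.

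The gene with the smallest p of all was lower in DKO. Alas1 (chromosome 9, 106233455 to 106247954) encodes the first and rate-limiting enzyme of heme synthesis. It stood at 75.1, 114, 142 and 135 CPM in Pld6 KO and at 39.9, 53.4 and 50.8 CPM in DKO, −1.28 ± 0.21 on the log2 scale (FDR 0.429, edgeR). The lowest Pld6 KO library was again replicate 1, and without it the difference was −1.44 (FDR 0.00718, edgeR). Alas1 stood at 81.8 and 86.1 CPM in WT, within the Pld6 KO range, and at 59.9 and 78.9 CPM in Dnmt3l KO, above all 3 DKO libraries. Spp1 (chromosome 5, 104435111 to 104441053), which encodes the secreted phosphoprotein osteopontin, was at 132, 82.7, 107 and 158 CPM in Pld6 KO and 59.3, 54.7 and 38.6 CPM in DKO, −1.24 ± 0.25 on the log2 scale (FDR 0.442, edgeR).

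The remaining lower genes differed by less. Nsdhl, an enzyme of cholesterol synthesis on the X chromosome, was at 42.9 to 50.1 CPM in Pld6 KO and 29.5 to 33.5 CPM in DKO, −0.56 ± 0.14 on the log2 scale. Chst8, a sulfotransferase that modifies the sugars of glycoprotein hormones, had a log2 fold change of −1.06 ± 0.25. Pop4, a protein subunit of RNase P, was at 54.4 to 74.8 CPM in Pld6 KO and 22.0 to 35.2 CPM in DKO, but the 2 WT libraries held 22.4 and 66.6 CPM, a spread as wide as the difference. Cdca3, which promotes entry into mitosis, differed by −0.57 ± 0.15, Higd2a, an assembly factor of the respiratory chain, by −0.50 ± 0.13, Rab4a, a GTPase of endosome recycling, by −0.63 ± 0.17, and Ap5s1, a subunit of the AP-5 adaptor complex, by −0.64 ± 0.17 on the log2 scale. Tmem254b (−0.75) is one of several near-identical genes, and 1810055G02Rik (−0.69) completes the list.

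**Figure D2:**
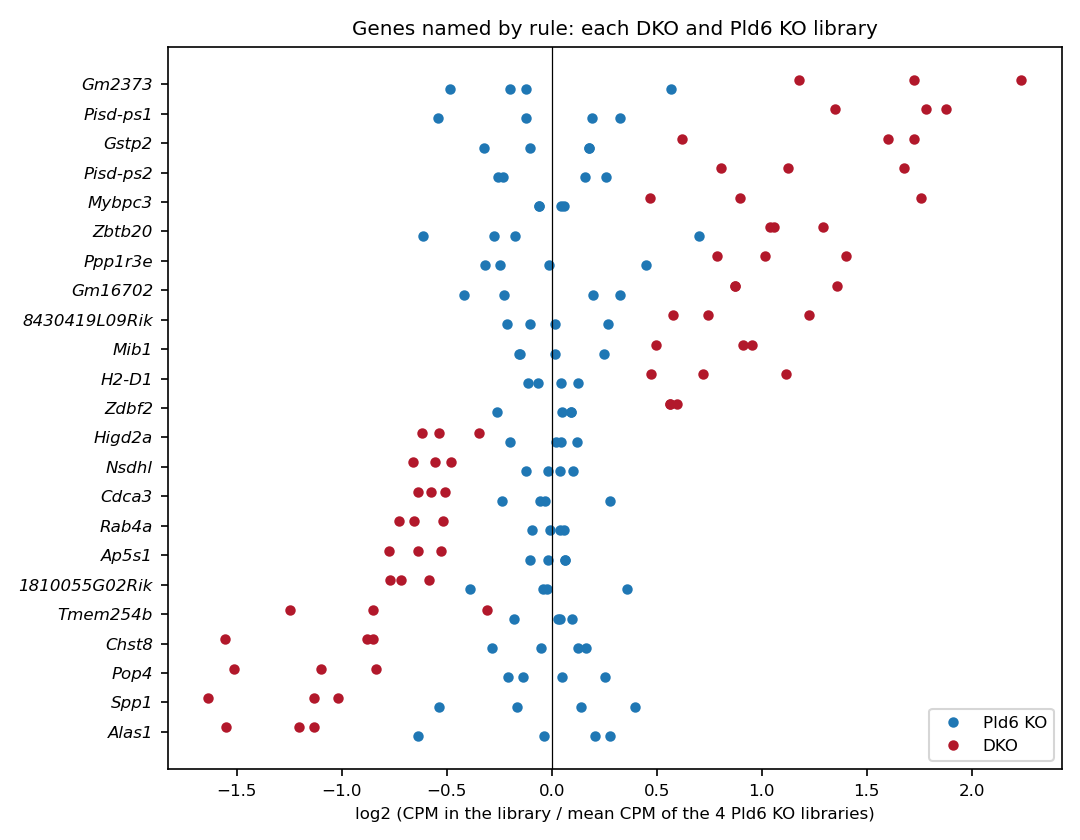
Each DKO and Pld6 KO library's level of the 23 genes named by rule (Dnmt3l left out for scale), as log2 of CPM over the mean of the 4 Pld6 KO libraries. Red and blue points are separate in each row because the rule required it, and the distance between them ranges from a log2 fold change of 1.76 for Gm2373 to −1.28 for Alas1.

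Retrotransposons next to genes can drive their transcription once methylation is lost. The study listed genes of this kind from its spermatocyte libraries, which are not used here. In newborn testes of the Pld6 or the Dnmt3l mutant it found no fusion transcripts of this kind. Whether retrotransposons drive the values below was not tested. Of its 37 genes for Dnmt3l KO, 27 passed the filter, and 5 were higher and 0 lower in DKO at an unadjusted p under 0.05 (3.47% and 2.55% of all genes). The median log2 fold change was 0.19, against 0.00 for all genes tested. Apoh (chromosome 11, 108395297 to 108414396), which encodes a phospholipid-binding plasma protein, had 5, 6, 2 and 6 counts in Pld6 KO and 10, 27 and 51 in DKO, with 0 in both WT libraries and 9 and 21 in Dnmt3l KO. Its level was 0.171 to 0.604 CPM against 1.07 to 2.14 CPM, 2.08 ± 0.51 on the log2 scale (FDR 0.655, edgeR). Eps8l1, an actin-regulating adaptor, had 1.82, 1.59, 0.942 and 0.704 CPM against 1.17, 10.5 and 7.46 CPM, so that DKO replicate 1 overlapped Pld6 KO. The other 3 were Cdh19, Poln and Fsd1l, named because the count is small. Without DKO replicate 3 the list had 3 higher and 1 lower. Of the study's 13 genes for Pld6 KO, 8 passed the filter, none reached an unadjusted p under 0.05 in either direction, and the median was 0.20.

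Germline genes that are silenced in somatic cells by promoter methylation were examined as a second group. Of 36 tested, 31 had a positive log2 fold change (49.9% of all genes), with a median of 0.24, and 3 were higher and 0 lower in DKO at an unadjusted p under 0.05 (3.47% and 2.55% of all genes). Rhox5, an X-linked homeobox gene of germ and Sertoli cells, was at 1.24, 3.02, 2.40 and 3.42 CPM in Pld6 KO and 4.05, 6.75 and 8.30 CPM in DKO, 1.35 ± 0.40 on the log2 scale (FDR 0.790, edgeR). Tex15, required for meiotic recombination and for retrotransposon silencing, was at 49.3, 106, 89.3 and 88.5 CPM against 121, 106 and 137 CPM, a log2 difference of 0.55 that was 0.36 without Pld6 KO replicate 1, and the third gene was Zcwpw1, a reader of histone methylation in meiosis. Without Pld6 KO replicate 1, the library low in prospermatogonia markers, the median of the group was 0.01, with 2 higher and 1 lower. Without DKO replicate 3 it was 0.08, with 1 higher.

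Among 26 prospermatogonia markers the median log2 fold change was 0.06. At an unadjusted p under 0.05, 1 was higher and 0 lower (3.47% and 2.55% of all genes). The one was Nanos2 (chromosome 7, 18987524 to 18988962), which encodes an RNA-binding protein that directs the male fate of fetal germ cells and maintains spermatogonial stem cells. It had 1, 2, 3 and 2 counts in Pld6 KO, 17, 11 and 66 in DKO, 0 and 1 in WT, and 3 and 0 in Dnmt3l KO. Every DKO library was above every other newborn library. The depth-scaled pooled ratio of DKO to Pld6 KO was 11.7 (95% interval 5.71 to 27.9, counting error alone), and the fitted log2 fold change was 3.33 ± 0.66 (FDR 0.442, edgeR). Other markers of the same cells did not show such a gap, with Dazl at 48.4 to 147 CPM in Pld6 KO and 75 to 159 CPM in DKO. Without Pld6 KO replicate 1 the marker list turned, with a median of −0.24 and 4 lower against 1 higher.

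The 25 genes of the piRNA pathway had a median of 0.05, and none of them reached an unadjusted p under 0.05 apart from Pld6, whose counts are at or under the floor in both groups. Among the 20 with a mean of at least 50 counts none did. Of 27 genes of DNA methylation and chromatin silencing, 2 were higher and 1, Dnmt3l, was lower at an unadjusted p under 0.05. Over all genes the shares were 3.47% and 2.55%. Both higher genes encode enzymes that oxidise 5-methylcytosine. Tet3 was at 96.4, 129, 127 and 94.9 CPM in Pld6 KO and 159, 132 and 152 CPM in DKO, 0.40 ± 0.17 on the log2 scale (FDR 0.798, edgeR), and Tet2 at 46.7 to 68.2 against 57.2 to 94.2 CPM, 0.39 ± 0.17, which was 0.20 without DKO replicate 2. Among 26 genes of meiotic prophase, 1 was higher, Tex15, and 1 was lower at an unadjusted p under 0.05. In the comparison of Dnmt3l KO with WT, 12 of the same 26 genes were higher at an unadjusted p under 0.05 and 0 lower (6.24% and 6.69% of all genes), with a median of 0.92 against 0.21 here. One library stood apart there, with a meiotic sum of 575 CPM in Dnmt3l KO replicate 1 against 364 CPM in replicate 2 and 329 and 299 CPM in WT. Of 28 genes of late germ cells, 19 were below the filter and none of the 9 tested reached an unadjusted p under 0.05.

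Imprinted genes were split by the parent in whose germ line their control region is methylated. The 9 genes under paternally methylated regions, which depend on Dnmt3l in the male germ line, had a median log2 fold change of −0.08. At an unadjusted p under 0.05, 1 was higher and 1 lower (3.47% and 2.55% of all genes). Zdbf2 (chromosome 1, 63200358 to 63314576), a paternally expressed gene, was at 67.7, 65.7, 67.8 and 53.1 CPM in Pld6 KO and at 96.0, 94.0 and 94.0 CPM in DKO, 0.57 ± 0.13 on the log2 scale (FDR 0.655, edgeR). Its transcript is 12629 bases long, and with an offset for transcript length and GC content the difference was 0.26. H19, a noncoding RNA from the maternal copy, was at 1170 to 2080 CPM against 1020 to 1450 CPM, and Mirg, a microRNA host transcript, had a log2 fold change of −0.37 ± 0.17.

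Of 28 genes under maternally methylated regions, 1 was higher and 4 lower at an unadjusted p under 0.05 (3.47% and 2.55% of all genes). Their median was −0.06. The count of lower genes was 1 without DKO replicate 1 or 3 or Pld6 KO replicate 2 or 3, and 2 without Pld6 KO replicate 1 or 4. Plagl1, a zinc finger transcription factor that restrains growth, was the most abundant of these, at 1530, 1430, 1380 and 1630 CPM in Pld6 KO and 955, 1080 and 1060 CPM in DKO, −0.54 ± 0.14 on the log2 scale (FDR 0.704, edgeR). Nnat, a small membrane protein, was at 63.7 to 68.7 against 34.4 to 62.2 CPM, and Snrpn and Magel2, paternally expressed genes of the Prader-Willi cluster, also had separate ranges. The long noncoding RNA Kcnq1ot1 was higher, at 126, 48.1, 45.1 and 34.4 CPM against 171, 124 and 74.3 CPM. Its transcript is 93092 bases long, and its log2 fold change of 0.95 became 0.04 with the offset for length and GC content, and ran from 0.64 (without DKO replicate 1) to 1.53 (without Pld6 KO replicate 1) with single libraries left out.

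Most genes of the interferon response had higher values in DKO. These genes are switched on when cells sense viral or self nucleic acid. Of 27 tested, 25 had a positive log2 fold change (49.9% of all genes), 6 were higher and 0 lower in DKO at an unadjusted p under 0.05 (3.47% and 2.55% of all genes), and the median was 0.49. Bst2, a membrane protein that tethers budding virus, was at 25.4, 33.4, 17.3 and 34.9 CPM in Pld6 KO and 53.3, 45.9 and 37.9 CPM in DKO, 0.72 ± 0.22 on the log2 scale (FDR 0.790, edgeR). Ifi44 was at 0.743, 1.03, 1.71 and 1.61 CPM against 5.44, 2.12 and 2.35 CPM, and Oasl2, of the oligoadenylate synthetase family, at 9.41, 12.2, 14.0 and 18.5 CPM against 32.9, 20.9 and 21.8 CPM. Xaf1, an apoptosis regulator, was at 3.47, 2.94, 11.6 and 18.1 CPM against 26.8, 27.7 and 16 CPM, with overlap, and the other 2 were the ubiquitin-like modifier Isg15 and the RNA sensor Dhx58. The DKO levels of Ifi44, Oasl2 and Isg15 were highest in replicate 1, which also held the most Rn45s. The part of that library in the result was not tested, but without it 2 of 25 genes were higher and 0 lower, with a median of 0.33. The count was 2 without Pld6 KO replicate 1, 3 without replicate 2 and 9 without replicate 4, with 0 lower each time. Among the other members, the RNA sensor Ddx58 had a log2 fold change of 0.01 and the signalling factor Stat2 one of −0.07.

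Interferon-induced factors bind an element in which GAAA is followed by 2 bases of any kind and a second GAAA, and promoters of these genes are shown to make that feature visible. RefSeq promoter windows (GRCm38.p6, 250 bases before to 50 after the start site) were at hand for 19 of the 27 genes, under 80%, so a share over the list is void. Among the 12494 tested genes with such windows, 3.64% hold the element on either strand in at least 1 window. It was found in 12 of the 19, among them Ddx58 and Stat2, whose values hardly differed. Shown are Bst2 and Isg15, and Ifit1 and Ifit3, which had the log2 fold changes 3.12 and 2.26 in Dnmt3l KO against WT and 0.79 and 0.90 here. These letters are not in the windows of Ifi44, Oasl2 and Xaf1. Each line gives 30 bases in the direction of transcription, with 1 match in capitals, read as its reverse complement where it lies on the other strand. All 4 windows hold further matches, which overlap in Bst2 and Isg15.
Bst2, chr8:71537577-71537606, minus strand: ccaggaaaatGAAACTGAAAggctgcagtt
Isg15, chr4:156200871-156200900, minus strand: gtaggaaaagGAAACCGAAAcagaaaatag
Ifit1, chr19:34640794-34640823, plus strand: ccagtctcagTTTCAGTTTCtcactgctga
Ifit3, chr19:34583397-34583426, plus strand: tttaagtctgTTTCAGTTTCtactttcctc

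In Dnmt3l KO against WT, which shares no library with the comparison of DKO and Pld6 KO, 17 of the 27 interferon genes were higher and 0 lower at an unadjusted p under 0.05 (6.24% and 6.69% of all genes), with a median log2 fold change of 1.18. Leukocyte markers moved with it, at a sum of 280 and 362 CPM in Dnmt3l KO against 203 and 184 CPM in WT. Their median was 0.59, with 3 of 16 higher at an unadjusted p under 0.05 (6.24% of all genes). Their part was not tested. Of the 27 genes, 24 were positive in both comparisons. That count was not made over all genes and the list was chosen with earlier results known, so no agreement is read from it. In both, 5 of the 27 were higher at an unadjusted p under 0.05, against 56 of all 15901 genes. Tested as a difference between the effects of Dnmt3l loss with and without Pld6, 2 of the 27 were smaller and 0 larger in the absence of Pld6 at an unadjusted p under 0.05 (10.9% of all genes in either direction), and none passed adjustment. The summed level of the list was 238, 266, 259 and 336 CPM in Pld6 KO, 419, 366 and 301 CPM in DKO, 242 and 248 CPM in WT and 341 and 576 CPM in Dnmt3l KO. Macrophage and leukocyte markers, whose cells express many of these genes, had a summed level of 161 to 257 CPM in Pld6 KO and 192 to 346 CPM in DKO. All 16 of them had a positive log2 fold change (49.9% of all genes), with a median of 0.23. S100a8, S100a9 and Itgam were higher at an unadjusted p under 0.05 (3.47% of all genes). The part of these cells in the interferon values was not tested. Without DKO replicate 3 none of the 16 was at that level. In DKO, replicate 1 had the lowest leukocyte sum, 192 CPM, and the highest interferon sum, 419 CPM. In Pld6 KO, replicate 4 had the highest of both, 257 and 336 CPM.

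**Figure D3:**
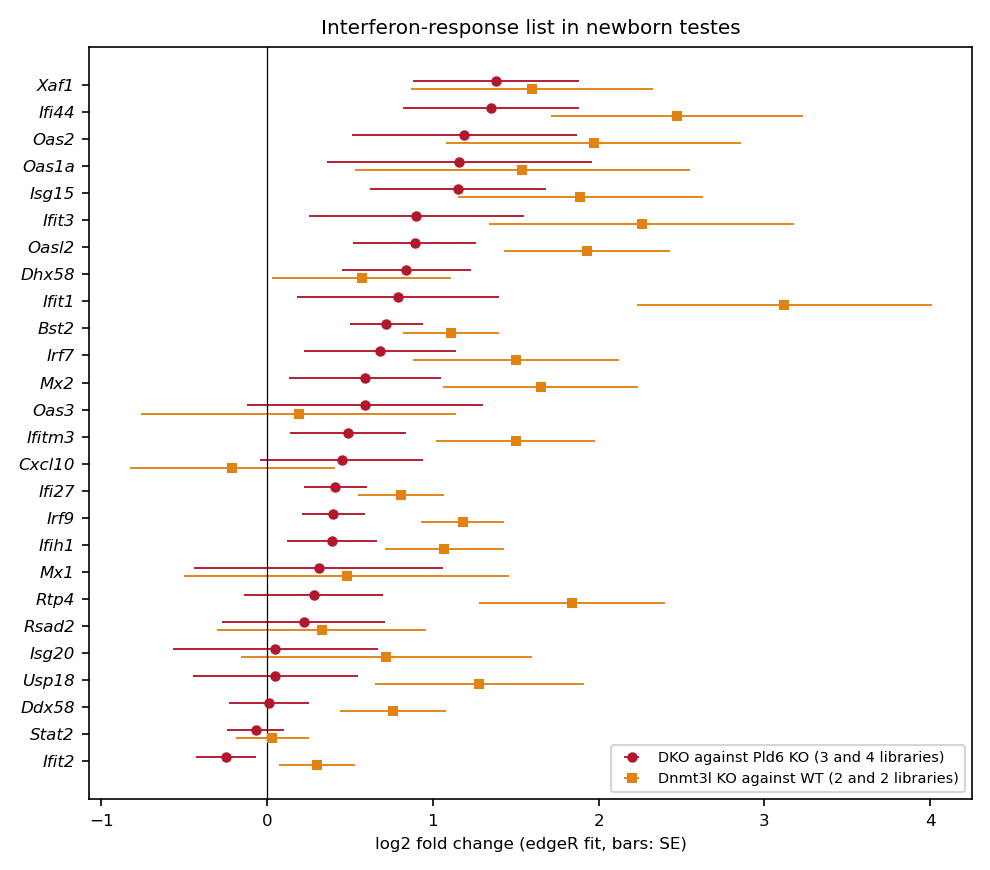
Log2 fold change (edgeR fit, bars: SE) of 26 of the 27 interferon-response genes in DKO against Pld6 KO (red) and in Dnmt3l KO against WT (orange), ordered by the first. The first comparison lies right of 0 for 24 of the 26 genes plotted, and the medians over all 27 genes are 0.49 and 1.18.

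Genes of fetal Leydig cells, the source of androgen in the fetal testis, leaned the other way. Of 22 tested, 4 had a positive log2 fold change, 0 were higher and 4 lower in DKO at an unadjusted p under 0.05 (3.47% and 2.55% of all genes), and the median was −0.33. Star, which carries cholesterol into mitochondria for steroid synthesis, was at 94.6, 130, 222 and 253 CPM in Pld6 KO and 90.5, 68.2 and 73.6 CPM in DKO, −1.18 ± 0.34 on the log2 scale (FDR 0.790, edgeR). Cyp17a1, which commits steroids to androgen, was at 94.5, 226, 447 and 682 CPM against 194, 53 and 36 CPM, −1.95 ± 0.61, with overlap. Left-out libraries moved it from −1.45 (without Pld6 KO replicate 4) to −3.03 (without DKO replicate 1). Lhcgr, the receptor for luteinizing hormone, and Cyp11b1, a late corticosteroid enzyme, were the other 2. Replicate 1 was the lowest Pld6 KO library for Star, Cyp17a1 and Lhcgr. In WT, Star stood at 78.3 and 103 CPM and Cyp17a1 at 209 and 220 CPM. Other steroid genes overlapped, with Hsd3b1 at 752 to 1380 CPM against 765 to 1090 CPM and Insl3 at 81.8 to 370 CPM against 107 to 230 CPM. The sum over the list was 3230, 4160, 3430 and 5440 CPM in Pld6 KO and 3200, 3260 and 2680 CPM in DKO, overlapping in 1 library of each group. With single libraries left out, the count of lower genes ran from 3 (without DKO replicate 2 or 3) to 7 (without Pld6 KO replicate 3), and the median from −0.21 (without Pld6 KO replicate 4) and −0.22 (without DKO replicate 3) to −0.50 (without DKO replicate 2). With the replicate number as a block the list had 2 lower and a median of −0.19.

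Among 25 cell cycle genes tested, 2 had a positive log2 fold change, 0 were higher and 5 lower at an unadjusted p under 0.05 (3.47% and 2.55% of all genes), and the median was −0.24. Aurka, a mitotic kinase, was at 49.4, 57.5, 59.3 and 49.8 CPM in Pld6 KO and 37.2, 39.1 and 39.1 CPM in DKO, −0.49 ± 0.15 on the log2 scale (FDR 0.790, edgeR), and Ube2c, which drives exit from mitosis, at 62.9 to 108 CPM against 41.9 to 65.1 CPM. The other 3 were Birc5, Ccna2 and Rrm2, while the proliferation marker Mki67 overlapped, at 573 to 805 CPM against 507 to 699 CPM. The count of lower genes was 2 (with 1 higher) without DKO replicate 2, 3 without DKO replicate 1 or Pld6 KO replicate 3 or 4, and 8 without Pld6 KO replicate 2. Replication-dependent histone genes, whose transcripts mostly lack the poly(A) tail on which these libraries select, had a median of −1.38 over 13 tested. All 13 were negative, against 49.9% positive over all genes, and 3 were lower at an unadjusted p under 0.05 (2.55% of all genes). Of the 24 listed, 11 were below the filter, and the 2 with a mean of at least 50 counts had a median of −0.68. The summed level of the 24 was 57.5, 28.1, 27.5 and 73.6 CPM in Pld6 KO and 40.7, 16.6 and 16.1 CPM in DKO, with overlap. It was 14.4 and 24.5 CPM in WT and 19.2 and 25.4 CPM in Dnmt3l KO, so the highest levels were in Pld6 KO. The median over the genes tested was −0.79 without Pld6 KO replicate 1, −0.75 without replicate 4 and −0.80 without DKO replicate 3. The count of lower genes ran from 0 (without DKO replicate 2 or 3) to 8 (without DKO replicate 1).

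Sertoli cell markers had a median of −0.04 over 27 genes, with Rhox5 and the iron carrier Trf higher and the transcription factor Gata1 lower. Here and in the rest of this paragraph, higher and lower mean an unadjusted p under 0.05 (3.47% and 2.55% of all genes). Peritubular and interstitial markers had a median of −0.02 over 21 genes, with the smooth muscle actin Acta2 lower at 673 to 1050 CPM against 556 to 757 CPM. Endothelial markers had a median of 0.04 over 13 genes and p53 targets 0.00 over 24, with none at an unadjusted p under 0.05. Erythroid genes, which mark blood in the tissue, varied widely between libraries. Their 8 tested members ran from −1.36 to 1.39 with a median of −0.04, which became 0.73 without Pld6 KO replicate 1 and −0.78 without DKO replicate 2, and their sum was 300 to 1160 CPM in Pld6 KO and 240 to 642 CPM in DKO. Immediate early genes, which respond within minutes to handling of tissue, had a median of 0.09 over 24 with Dusp1 higher and Myc lower.

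Markers of neighbouring tissues were low but not absent. Skeletal muscle markers summed to 87.2 to 149 CPM in Pld6 KO and 141 to 184 CPM in DKO. Of 19 tested, 3 were higher and 0 lower at an unadjusted p under 0.05 (3.47% and 2.55% of all genes). Their median was 0.51. Actn2, of the muscle Z-disc, was at 1.65 to 4.37 CPM against 6.75 to 7.59 CPM, while the defining markers Acta1, Ckm and Mylpf were at 5.41 CPM or less in all 7 libraries. Without DKO replicate 3 the median was −0.09, and the part of this tissue in the other values, Mybpc3 included, was not tested. Mesonephros, epididymis and rete markers summed to 199 to 272 against 224 to 256 CPM, with Esr1 and Cdh16 higher, and Cdh16 rested on DKO replicate 3 (6.08 CPM against 0.533 and 0.379 in the other two). Adrenal, kidney and liver markers summed to 157, 198, 284 and 349 CPM in Pld6 KO and 165, 147 and 136 CPM in DKO. Star, which is also on the fetal Leydig list, made up 94.6, 130, 222 and 253 CPM of these sums in Pld6 KO. In DKO it made up 90.5, 68.2 and 73.6 CPM. Lrp2 was higher and Star lower, and the median was −0.31 over 11, which was −0.02 without Pld6 KO replicate 4.

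**Figure D4:**
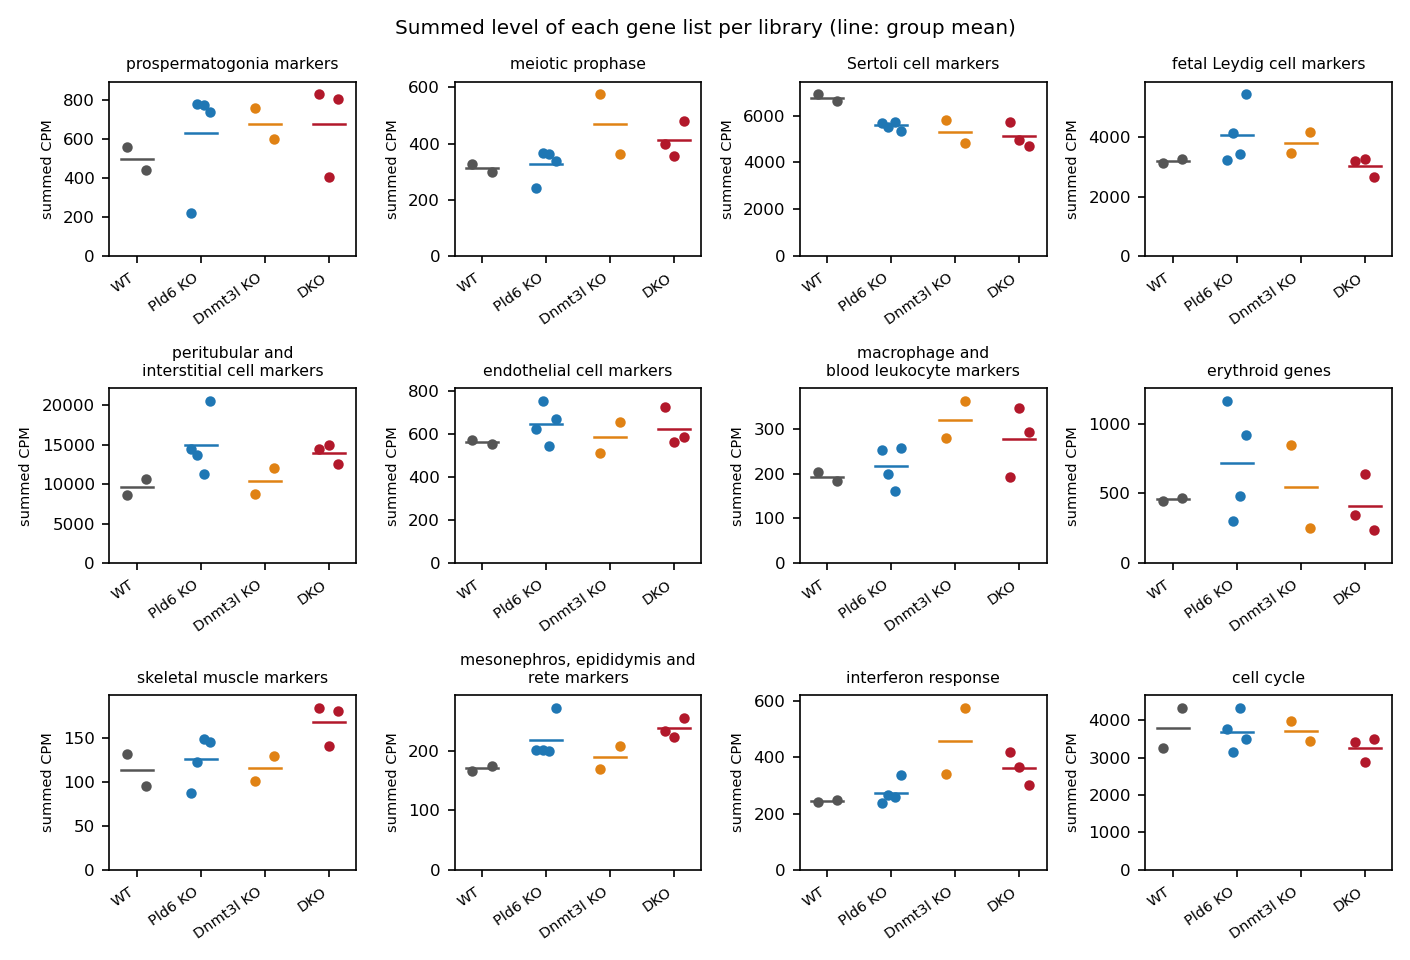
Summed CPM of 12 gene lists in each of the 11 newborn libraries, with lines at the group means. Pld6 KO replicate 1 stands apart in prospermatogonia markers (222 CPM), and the DKO libraries lie at 301 to 419 CPM for the interferon list against 238 to 336 CPM in Pld6 KO.

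Whether Dnmt3l loss acts differently when Pld6 is absent was tested as the difference between DKO against Pld6 KO and Dnmt3l KO against WT. No gene passed (0% of 15901, smallest FDR 0.341, edgeR), and 1740 genes (10.9%) had an unadjusted p under 0.05. The DESeq2 Wald test called 54. Across the 15901 genes the 2 effects had a Pearson correlation of 0.042 and a Spearman correlation of −0.042, given as a description over genes, which are not independent. Dnmt3l KO against WT had 2056 genes at an unadjusted p under 0.05 (12.9%). Of the genes at that level in both comparisons, 56 were higher in both, 35 lower in both, 62 higher without Pld6 and lower with it, and 10 the reverse.

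The 3 genes with the smallest p for this difference had long transcripts. Pdzd2, a PDZ-domain protein, was at 58.2, 64.8, 77.3 and 49.4 CPM in Pld6 KO and 101, 88.6 and 103 CPM in DKO, but at 99.7 and 73.6 CPM in WT and 49.4 and 43.4 CPM in Dnmt3l KO. Kmt2d, a histone H3 lysine methyltransferase of enhancers, showed the same crossing, at 192, 271, 336 and 206 against 353, 441 and 369 CPM with Pld6 absent and at 313 and 268 against 144 and 135 CPM with Pld6 present. Zbtb20 crossed likewise. The log2 differences between the effects were 1.54 ± 0.27, 1.68 ± 0.31 and 2.62 ± 0.49 (FDR 0.341 each, edgeR). With the offset for transcript length and GC content they were 0.84, 0.62 and 1.93.

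Transcript length went with the fold change. Genes were divided by transcript length into 10 groups of about equal size, from a median of 1027 bases in the shortest to 8296 bases in the longest. The median log2 fold change of DKO against Pld6 KO went from −0.09 in the shortest group to 0.17 in the longest. Of the genes at an unadjusted p under 0.05, 42 were higher and 73 lower in the shortest group, while 177 were higher and 5 lower in the longest. Over the genes, the Spearman correlation of fold change with length was 0.257 and with GC content 0.008, as a description. The libraries of each group differed in this respect. The correlation of a library's deviation with length was −0.268, 0.024, 0.259 and −0.169 in Pld6 KO and 0.254, −0.118 and 0.355 in DKO, so the groups overlapped. With an offset for length and GC content, 990 genes had an unadjusted p under 0.05, 378 higher and 612 lower, the reverse of the balance of 552 and 405 without it. With the offset, the log2 fold changes of the long genes Tet3, Tet2 and Tex15 were 0.15, 0.21 and 0.32. Those of Alas1 (−1.27), Spp1 (−1.19), Bst2 (0.77), Nanos2 (3.39) and Star (−1.18) moved by less than their SE. The interferon list then had 8 higher and 0 lower with a median of 0.53.

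**Figure D5:**
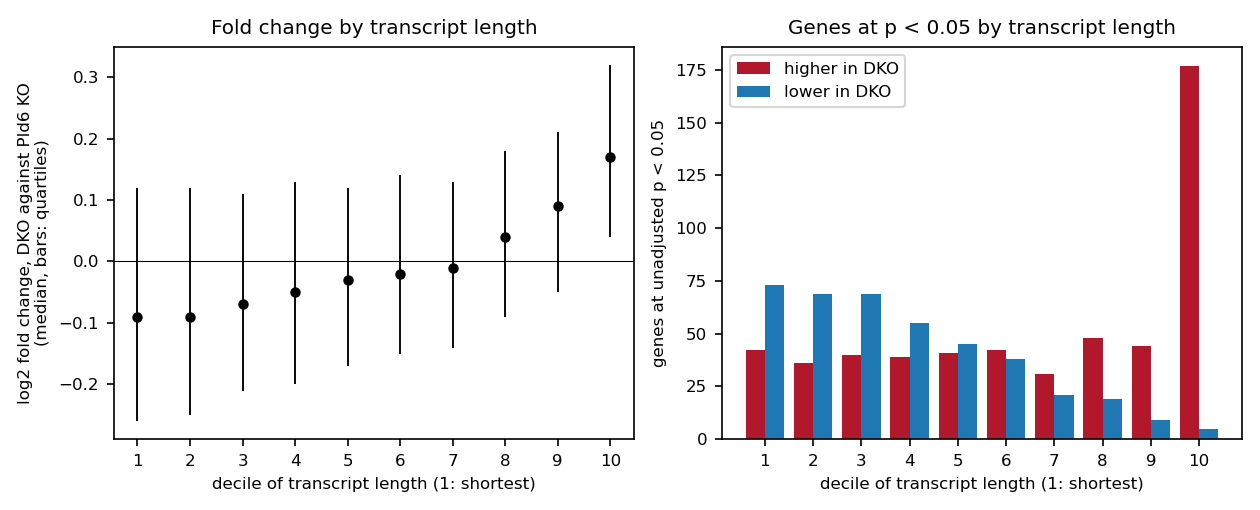
Left, median log2 fold change of DKO against Pld6 KO (bars: quartiles) in 10 groups of genes by transcript length. Right, the number of genes at an unadjusted p under 0.05 in each group, with 177 higher and 5 lower among the longest transcripts and 42 and 73 among the shortest.

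The only designed difference between the groups lies at Dnmt3l, so genes near it were examined. Of 57 genes within 1 Mb, 27 were tested. Their median log2 fold change was −0.11, with 0 higher and 1 lower at an unadjusted p under 0.05 (3.47% and 2.55% of all genes). The lower gene was Icosl, a T-cell costimulatory ligand that lies 5.7 kb from Dnmt3l, named because the count is small. Its log2 fold change was −0.57 ± 0.19 (FDR 0.790, edgeR). Aire, which overlaps Dnmt3l in the annotation, had 2, 14, 3 and 10 counts in Pld6 KO and 1, 3 and 6 in DKO.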

How the data were processed

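Stranded poly(A) libraries of whole newborn testes were read as 100-bp pairs. Alignment to mm10 by the authors used TopHat2, and Cuffdiff quantified RefSeq genes (versions not given in the sources used here). For every gene and library the deposited table gives an unscaled estimated count (97.7% of values whole) and FPKM, which the authors scaled to transcript length and library size. Cuffdiff shares fragments between similar transcripts by likelihood, so near-identical genes are uncertain. Replicates count from 0 in the table and from 1 in the labels and were matched in that order. Here the estimated counts were rounded. Of 23980 genes, 2 with a status other than OK were left out (Rn45s and Ss18).

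All 11 newborn libraries entered one fit with edgeR 4.0.16 in R 4.3.3 (filterByExpr, TMM, glmQLFit and glmQLFTest). Genes were called at a Benjamini-Hochberg FDR under 0.05 and a fold over 2, and the difference between effects at FDR under 0.05. Alternatives used DESeq2 1.42.0 and limma 3.58.1, the latter also on log2(FPKM + 1) and log2(FPKM + 0.1). CPM values use TMM-scaled library sizes and no prior count. Depth limits genes of few counts, for which a pooled ratio with an exact 95% interval is given. The p-values measure the spread between these libraries.

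Named genes were Pld6, Dnmt3l, any called gene, the 12 genes of smallest p in each direction among those with separate CPM ranges and a mean of at least 50 counts in the higher group, the 2 of smallest p per list and direction among members with an unadjusted p under 0.05, and the 3 of smallest p for the difference between effects. Members and the 24 lists were chosen with earlier results of these data known, so no p-value is given for a list as a whole. Some list members are not reported here by name. Of the genes, 23822 were matched to RefSeq GRCm38.p6 by symbol or synonym. The DKO and Pld6 KO replicate numbers were checked as pairs. Same-numbered libraries had correlations of −0.332, −0.219 and 0.271, so they were not treated as pairs. Python 3.11.15, pandas 2.3.3, numpy 2.4.6 and matplotlib 3.10.9 were also used.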

Additional observations from a re-analysis of the deposited data

Results flagged for a closer look

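Of 81 sets of 4 Pld6 KO libraries examined (levels of named genes and sums of gene lists), 5 had a library that lay far from the other 3 by Dixon's 95% criterion, where chance gives about 1 in 20. Pld6 KO replicate 1 held 222 CPM of prospermatogonia markers, against 742 to 783 CPM in the others. The same library held 126 CPM of Kcnq1ot1, against 34.4 to 48.1 CPM. Pld6 KO replicate 4 held 53.1 CPM of Zdbf2, against 65.7 to 67.8 CPM. That library also held 9.26 CPM of Lrp2, against 3.6 to 4.13 CPM, and 272 CPM of mesonephros, epididymis and rete markers, against 199 to 201 CPM.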

How the results depend on the processing

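The count of 0 called genes held under most alternatives. It became 6 with the DESeq2 Wald test, 1 with limma voom and sample quality weights (Alas1) and 1 with the germ cell marker sum as a covariate (Dnmt3l). Leaving out single libraries gave 0 to 2. The 2 without Pld6 KO replicate 1 were Alas1 and Dnmt3l, and the 2 without Pld6 KO replicate 3 were Pitpnm3 and Tmem245. The 957 genes at an unadjusted p under 0.05 became 1478 with sample quality weights and ranged from 624 (without DKO replicate 3) to 1377 (without Pld6 KO replicate 3) when single libraries were left out. With an offset for transcript length and GC content, added after seeing the data, their split of 552 higher and 405 lower became 378 and 612. For the difference between the effects of Dnmt3l loss, the count of 0 became 54 (48 larger, 6 smaller without Pld6) under DESeq2 and ranged from 0 to 16 when single libraries were left out (16 without Pld6 KO replicate 3, 13 without Dnmt3l KO replicate 2, 1 and 2 without WT replicates 1 and 2). The causes were not tested. The replicate block, in which the numbers do not pair the samples, gave 0 calls and 902 genes at an unadjusted p under 0.05 (599 higher and 303 lower). Leaving out single libraries moved the log2 fold change of Cdh16 between −0.56 (without DKO replicate 3) and 2.37. For log2 differences of summed markers the same ranges were −0.24 (without Pld6 KO replicate 1) to 0.54 for prospermatogonia (0.20 with all libraries), −0.21 to 0.09 (without Pld6 KO replicate 4) for peritubular and interstitial cells (−0.08, and 0.09 under the replicate block), and −0.16 to 0.02 for endothelial cells (−0.05, with 0.02 and 0.01 without DKO replicate 2 or Pld6 KO replicate 2). Of the other named genes, none changed sign under any alternative.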
